A study of Mus musculus with 200 samples.

Results

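Galnt15, Smim3 and Cmtm3 are 3 of the 56941 genes in the deposited table, and they were found there by their symbols. They were chosen by their p-values for closed head injury (CHI) against sham surgery in C57BL/6J mice at 9 h, where they ranked 3rd, 4th and 5th of 16967 genes, so their values in that contrast are given as a description only. RNA from the brains of 200 mice was sequenced after CHI or sham surgery (67 sham mice), collected 9, 24 or 72 h later. The 4 strains were labelled C57BL/6J, of which there were 61 mice, IL-1R1 gKO (55 mice), IL-1R1 eRestore (50 mice) and IL-1R1 nRestore (34 mice). The sources used here do not expand the last 3 names or give a promoter or Cre driver, so the strains are named as labelled. As described for C57BL/6J, sham mice had anaesthesia and a scalp incision, and CHI mice in addition a single impact to the intact skull. The groups at 9 h held 15 CHI and 6 sham C57BL/6J mice, 13 and 6 gKO, 12 and 6 eRestore, and 6 and 4 nRestore mice. At 24 h they held 14 and 6, 12 and 6, 9 and 5, and 8 and 5 mice, and at 72 h 14 and 6, 12 and 6, 12 and 6, and 6 and 5 mice. Both sexes were used (102 females and 98 males), apart from nRestore at 72 h, where all mice were labelled male. The mice were 3.3 to 7.67 months old, and those at 9 h were 3.3 to 5.17 months old.

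The proteins encoded by these genes sit in or pass through the membranes of the cell. Galnt15 belongs to the polypeptide GalNAc transferases, Golgi enzymes that attach the first sugar, N-acetylgalactosamine, to serine or threonine and so begin mucin-type O-glycans, which other enzymes then extend and cap with sialic acid. Smim3 encodes a small integral membrane protein first described as a transcript induced by nerve growth factor in cultured neuron-like cells. Cmtm3 belongs to the chemokine-like factor family of proteins that span the membrane through a MARVEL domain, a fold found in proteins of membrane apposition and vesicle traffic. IL-1R1 is the receptor through which the inflammatory cytokine interleukin-1 signals.

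On GRCm39, with the positions of the GENCODE annotation, Galnt15 (ENSMUSG00000021903) lies on the plus strand of chromosome 14 at 31750756 to 31784154 and has 7 annotated transcripts. Cmtm3 (ENSMUSG00000031875) lies on the plus strand of chromosome 8 at 105065985 to 105074901 and has 22. The 250 bases before the first annotated start are shown for these genes only. Smim3 was high in the same groups of mice, so that pattern does not single out this pair, and the Smim3 window is not shown. Both windows are read 5′ to 3′ on the plus strand, Galnt15 from chr14:31750506-31750755 and Cmtm3 from chr8:105065735-105065984.
Galnt15: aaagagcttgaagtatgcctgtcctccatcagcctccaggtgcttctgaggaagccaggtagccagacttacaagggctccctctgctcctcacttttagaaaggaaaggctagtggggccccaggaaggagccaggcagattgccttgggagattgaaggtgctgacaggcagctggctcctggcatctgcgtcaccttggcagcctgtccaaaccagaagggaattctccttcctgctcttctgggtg
Cmtm3: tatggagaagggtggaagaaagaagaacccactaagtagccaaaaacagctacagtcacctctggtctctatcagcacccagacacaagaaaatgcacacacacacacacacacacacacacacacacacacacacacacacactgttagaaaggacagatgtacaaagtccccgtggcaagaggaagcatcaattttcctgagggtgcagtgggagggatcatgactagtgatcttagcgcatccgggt
Neither window overlaps an annotated exon, and their GC contents were 56% and 48.4%. Both strands of each window were searched for the letters of 5 motifs, and neither window held any of them, so no base is in capitals. These were the glucocorticoid half-site AGAACA (in 15.5% of 21770 such windows), the AP-1 site TGANTCA (6.46%), the cyclic AMP response element TGACGTCA (1.31%), the GC box GGGCGG (29.9%) and the Egr site GCGTGGGCG (0.409%). The result covers these letters in these windows only.

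Smim3 (ENSMUSG00000038059) lies on the minus strand of chromosome 18 at 60607260 to 60635091 and has 8 annotated transcripts. Galnt15 is overlapped on the other strand by 4930425P05Rik and Gm49084, and Cmtm3 by Cmtm4. Whether reads were counted by strand is not given in the sources used here, so reads from these partners cannot be told apart from those of the members.

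Libraries held 14857985 to 57355676 estimated counts (median 20258936), and each member had 26 to 915 estimated counts in a mouse. Levels are given as CPM, the count scaled to a common library total and normalized by the trimmed mean of M-values (TMM). Each mouse's profile correlated with the mean of its own group at r = 0.977 or more. Il1r1 was not lower in the mice labelled gKO (median 9.91 CPM, range 6.08 to 17.6) than in C57BL/6J (median 5.24 CPM, range 2.92 to 13.1). Which part of the gene is altered is not given, so this level does not check the label. The markers of sex did not match the label in 2 mice (sham eRestore at 24 h and CHI nRestore at 72 h), and summed markers of the choroid plexus passed 100 TPM, a unit that also divides by transcript length, in 34 mice, 16 of them at 9 h. In a hemisphere, more RNA per cell and more cells of a type cannot be told apart.

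In C57BL/6J mice at 9 h, where the genes were chosen, all 3 were higher after CHI. Galnt15 ran from 3.50 to 6.82 CPM in sham mice (median 5.48) and from 12.8 to 27.9 CPM in CHI mice (median 16.6). Smim3 ran from 4.48 to 7.34 CPM in sham mice (median 6.62) and from 12.2 to 22.7 CPM in CHI mice (median 17.9). Cmtm3 ran from 4.39 to 6.42 CPM in sham mice (median 5.20) and from 8.98 to 14.0 CPM in CHI mice (median 12.1). All 15 CHI mice were above all 6 sham mice for each gene, a separation that 0.955% of tested genes showed. The fitted log2 fold changes were 1.69 (SE 0.14) for Galnt15, 1.43 (SE 0.12) for Smim3 and 1.16 (SE 0.10) for Cmtm3, or 3.23-fold, 2.70-fold and 2.23-fold. In that contrast 14.1% of genes were called at an adjusted p under 0.05, and nothing is read from the members' place among them.

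**Figure D1:**
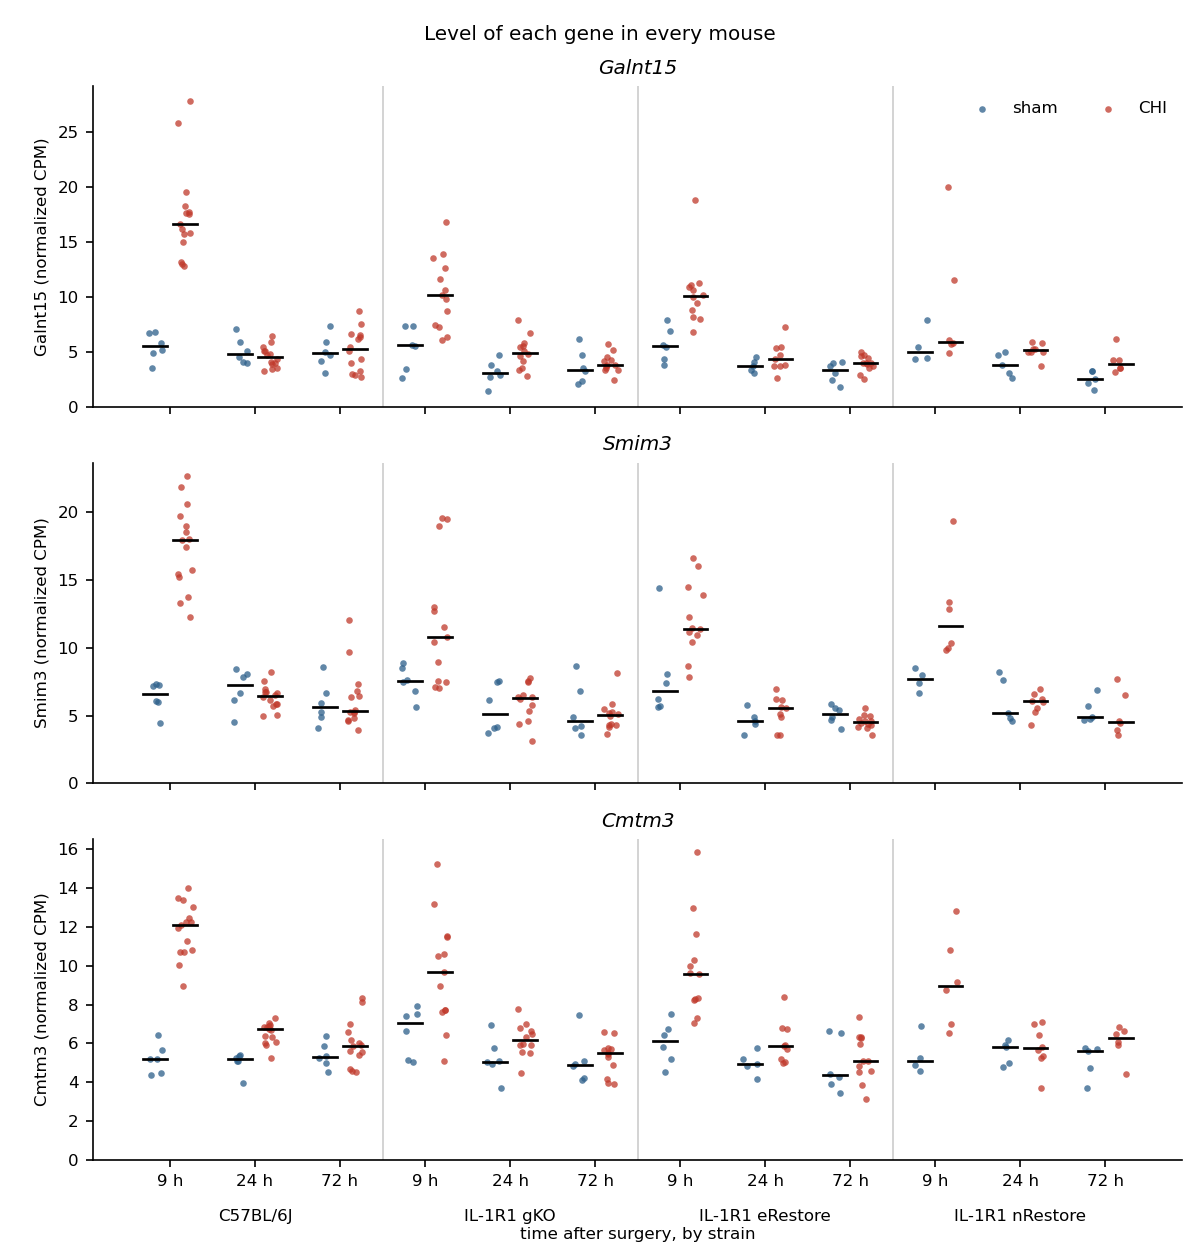
Normalized level (CPM) of Galnt15, Smim3 and Cmtm3 in each mouse by strain and time point, with a panel for each gene; blue points are sham mice, red points CHI mice and black bars medians. At 9 h CHI mice are above sham mice without overlap in C57BL/6J (Galnt15 12.8 to 27.9 against 3.50 to 6.82 CPM) and overlap with sham mice in most other strains, whereas at 24 and 72 h the ranges of CHI and sham mice overlap in every panel.

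The question in the other strains was whether mice that had no part in the choice of the genes showed the same difference at 9 h. The mice were others, but the experiments were partly shared. Those of the C57BL/6J mice at 9 h also held all eRestore mice and part of the gKO mice. The remaining gKO mice and all nRestore mice were in an experiment without C57BL/6J mice. Over the 31 CHI and 16 sham mice of the 3 IL-1R1 strains, all 3 genes rose after CHI. The log2 fold change was 0.85 for Galnt15 (SE 0.15, 95% CI 0.54 to 1.16, adjusted p = 0.000115, 1.81-fold), 0.66 for Smim3 (SE 0.13, 95% CI 0.40 to 0.92, adjusted p = 0.000331, 1.58-fold) and 0.66 for Cmtm3 (SE 0.11, 95% CI 0.44 to 0.88, adjusted p = 3.68e-05, 1.58-fold). In this comparison 12.3% of 18295 genes were called, and 6.31% of all tested genes were called as higher. A larger log2 fold change than theirs was fitted for 0.864%, 1.53% and 1.54% of genes. The 3 experiments with IL-1R1 mice at 9 h, fitted alone, gave log2 fold changes of 0.67, 0.97 and 0.86 for Galnt15, 0.50, 0.67 and 0.75 for Smim3 and 0.51, 0.65 and 0.75 for Cmtm3. All 9 were positive, and 4 of them passed the test (Galnt15 at 0.97, adjusted p = 0.0111, Smim3 at 0.67 and 0.75, adjusted p = 0.00507 and 0.0275, and Cmtm3 at 0.75, adjusted p = 0.0279).

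Galnt15, the glycosyltransferase, rose in eRestore mice. In gKO mice it ran from 2.58 to 7.38 CPM after sham surgery (median 5.59) and from 6.03 to 16.8 CPM after CHI (median 10.2), and 10 of 13 CHI mice were above all sham mice. All CHI mice were above all sham mice for 0.0422% of genes in this strain, a stricter count than 10 of 13. In eRestore mice it ran from 3.79 to 7.87 CPM after sham surgery (median 5.52) and from 6.79 to 18.8 CPM after CHI (median 10.1). There 11 of 12 CHI mice were above all sham mice, and all CHI mice were above all sham mice for 0.492% of genes. The nRestore mice were split, with sham mice at 5.46, 7.87, 4.31 and 4.41 CPM and CHI mice from 4.86 to 20.0 CPM (median 5.91). The 2 highest nRestore CHI mice were at 11.5 and 20.0 CPM, above every sham mouse, and the other 4 were between 4.86 and 6.04 CPM, inside the sham range. The log2 fold change was 0.88 in eRestore (SE 0.15, 95% CI 0.57 to 1.19, adjusted p = 0.00174), against a background of 7.34% of genes called. It was 0.97 in gKO (SE 0.24, adjusted p = 0.103), where 0.199% of genes were called, and 1.10 in nRestore (SE 0.40, adjusted p = 0.300), where 0.608% were called. The eRestore value fell to 0.57 in an experiment alone and was not called there (adjusted p = 0.169). The gKO value passed the test with experiment, which CHI and sham mice shared, in place of age (0.96, adjusted p = 0.0304) and with DESeq2 (0.97, adjusted p = 0.00456). The nRestore value was 0.68 (adjusted p = 0.565) without the sex and age terms and 0.69 (adjusted p = 0.176) without CHI replicate 2.

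Smim3, the small membrane protein, did not pass the test in any IL-1R1 strain taken alone, although its CHI medians were the higher in all of them. In gKO mice it ran from 5.64 to 8.84 CPM after sham surgery (median 7.57) and from 7.05 to 19.6 CPM after CHI (median 10.8), and 9 of 13 CHI mice were above all sham mice. In eRestore mice it ran from 5.65 to 14.4 CPM after sham surgery (median 6.81) and from 7.81 to 16.6 CPM after CHI (median 11.4). The sham mouse at 14.4 CPM left 3 of 12 CHI mice above all sham mice. In nRestore mice the sham values of 8.48, 7.43, 6.67 and 7.98 CPM all lay below the 6 CHI values of 9.86 to 19.3 CPM (median 11.6). All CHI mice were above all sham mice for 2.64% of genes in this strain. The log2 fold change was 0.63 in gKO (SE 0.23, adjusted p = 0.292), 0.59 in eRestore (SE 0.20, adjusted p = 0.0798) and 0.87 in nRestore (SE 0.21, adjusted p = 0.0846). Without the high sham mouse the eRestore value was 0.87 (adjusted p = 0.0023), and with DESeq2 the eRestore and nRestore values were 0.60 (adjusted p = 0.0241) and 0.86 (adjusted p = 0.00614).

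Cmtm3, the MARVEL domain protein, rose in eRestore and nRestore mice. In gKO mice it ran from 5.04 to 7.92 CPM after sham surgery (median 7.05) and from 5.12 to 15.3 CPM after CHI (median 9.67), and 8 of 13 CHI mice were above all sham mice. In eRestore mice it ran from 4.50 to 7.53 CPM after sham surgery (median 6.11) and from 7.07 to 15.9 CPM after CHI (median 9.60), with 10 of 12 CHI mice above all sham mice. In nRestore mice the sham values were 5.25, 6.92, 4.57 and 4.89 CPM and the CHI values ran from 6.53 to 12.8 CPM (median 8.94), with 5 of 6 above all sham mice. The log2 fold change was 0.68 in eRestore (SE 0.16, 95% CI 0.34 to 1.02, adjusted p = 0.0171) and 1.02 in nRestore (SE 0.18, 95% CI 0.64 to 1.41, adjusted p = 0.0237). It was 0.55 in gKO (SE 0.19, adjusted p = 0.252). Both calls were lost without the mice high in choroid plexus markers (0.69, adjusted p = 0.0986 and 1.01, adjusted p = 0.263). The eRestore call was also lost without sham replicate 1 (0.61, adjusted p = 0.0632) and in each experiment alone (0.53 and 0.92). Without the sex and age terms the nRestore call was lost (0.75). The nRestore call was lost without any one of sham replicates 1, 3 and 4 and CHI replicates 1 and 6 (0.99 to 1.15, adjusted p = 0.0646 to 0.152).

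No difference of the CHI effect among the 3 IL-1R1 strains was called for any gene at 9 h with edgeR or DESeq2, and 800 of 18295 genes had an unadjusted p under 0.05 in edgeR. The differences between pairs of strains ran from -0.29 to 0.20 for the members, with joint adjusted p of 0.986 for Galnt15, 0.992 for Smim3 and 0.986 for Cmtm3. The intervals were wide, from -1.11 to 0.53 for Galnt15 in nRestore against gKO and from -0.36 to 0.65 for Cmtm3 in eRestore against gKO. As a description, since C57BL/6J mice chose the genes, the CHI effect was smaller than in C57BL/6J by 0.71, 0.78 and 0.61 in gKO for Galnt15, Smim3 and Cmtm3. The matching differences were -0.85, -0.83 and -0.45 in eRestore and -1.02, -0.69 and -0.39 in nRestore. Between the sexes, the CHI effect in males minus that in females was -0.14 for Galnt15 (95% CI -0.75 to 0.47), -0.15 for Smim3 (95% CI -0.67 to 0.36) and -0.07 for Cmtm3 (95% CI -0.51 to 0.37), each with an adjusted p of 1.00.

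**Figure D2:**
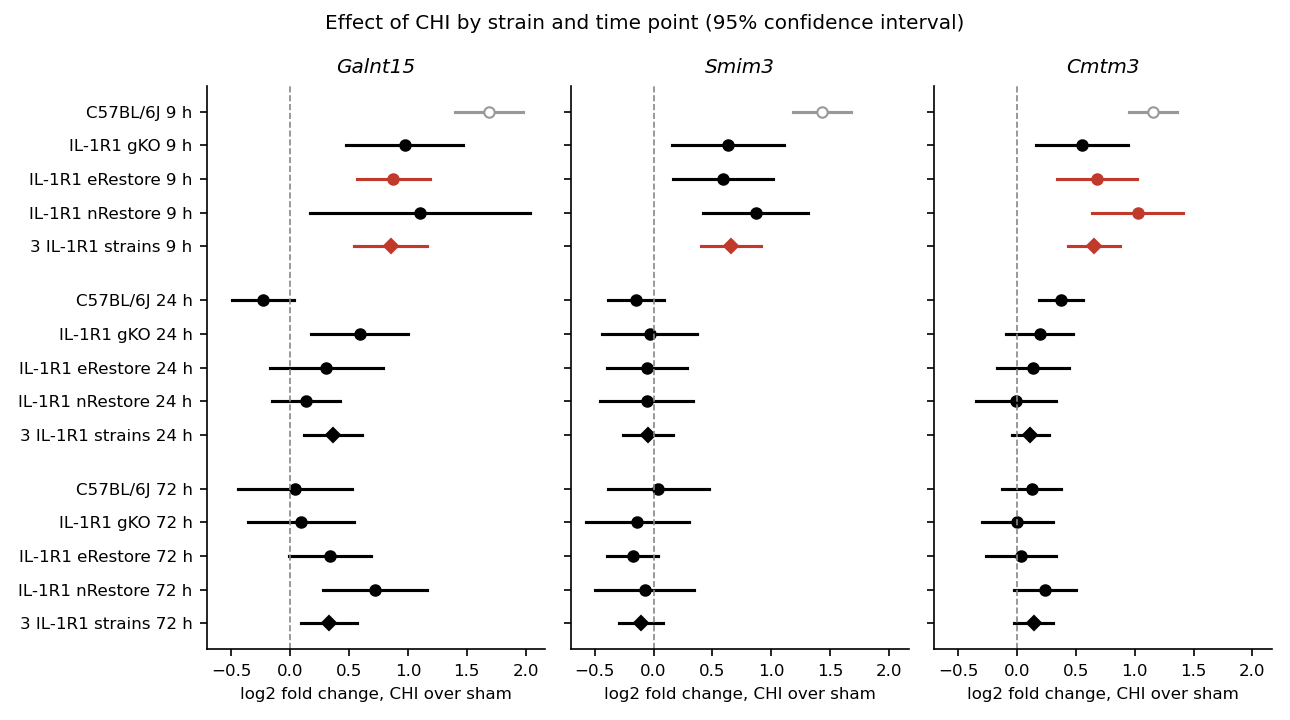
Fitted log2 fold change of CHI against sham mice with its 95% confidence interval for each member, strain and time point; circles are single strains and diamonds the 3 IL-1R1 strains together, red marks an adjusted p under 0.05 and open grey the contrast that chose the genes. The pooled values at 9 h are 0.85, 0.66 and 0.66, whereas none of the values at 24 and 72 h is red.

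With edgeR and terms for sex and age, no member was called at 24 or 72 h in any strain or over the 3 IL-1R1 strains. Cmtm3 in C57BL/6J mice at 24 h was called with experiment in place of age (0.39, adjusted p = 0.0369) and with DESeq2 (0.38, adjusted p = 0.0180). At 24 h 0.404% of genes were called in C57BL/6J, 0.0059% in gKO, 0% in eRestore and nRestore and 0.231% over the 3 IL-1R1 strains. At 72 h it was 0% in C57BL/6J and gKO, 0.00605% in eRestore, 0.0121% in nRestore and 0.295% over the 3 strains. Where edgeR called none, the genes with an unadjusted p under 0.05 numbered 1494 (eRestore, 24 h), 740 (nRestore, 24 h), 869 (C57BL/6J, 72 h) and 376 (gKO, 72 h), and DESeq2 called 50, 3, 38 and 0 genes. At 24 h the values over the 3 IL-1R1 strains were 0.37 for Galnt15 (SE 0.12, 95% CI 0.12 to 0.61, adjusted p = 0.188), -0.05 for Smim3 (95% CI -0.26 to 0.17, adjusted p = 0.897) and 0.11 for Cmtm3 (95% CI -0.04 to 0.27, adjusted p = 0.568). At 72 h they were 0.33 for Galnt15 (SE 0.12, 95% CI 0.09 to 0.57, adjusted p = 0.549), -0.11 for Smim3 (95% CI -0.29 to 0.08, adjusted p = 0.890) and 0.14 for Cmtm3 (95% CI -0.02 to 0.31, adjusted p = 0.880). The Galnt15 value at 72 h ran from 0.08 to 0.97 in single experiments and was 0.49 without gKO mice and 0.22 without nRestore mice, none of them called. Without the 2 mice whose sex label did not match, these were 0.41, -0.06 and 0.10 at 24 h and 0.29, -0.14 and 0.13 at 72 h.

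Some single groups at the later time points held wider gaps, and only part of them is given in full. Among the others were Galnt15 in nRestore at 24 h (5 of 8 CHI mice above all sham mice) and Cmtm3 in nRestore at 72 h (5 of 6). All CHI mice were above all sham mice for 0.0664% of genes in C57BL/6J at 24 h and 0.176% in nRestore at 72 h. The share of genes with most CHI mice above all sham mice was not computed. Cmtm3 in C57BL/6J mice at 24 h ran from 3.96 to 5.40 CPM after sham surgery (median 5.19) and from 5.27 to 7.30 CPM after CHI (median 6.73), and 13 of 14 CHI mice were above all sham mice. Its log2 fold change was 0.38 (SE 0.09, 95% CI 0.19 to 0.56, adjusted p = 0.0655). Galnt15 in gKO mice at 24 h ran from 1.40 to 4.67 CPM after sham surgery (median 3.04) and from 2.77 to 7.85 CPM after CHI (median 4.92), with a log2 fold change of 0.59 (SE 0.20, adjusted p = 0.338). In nRestore mice at 72 h it ran from 1.56 to 3.25 CPM after sham surgery (median 2.49) and from 3.12 to 6.14 CPM after CHI (median 3.88), and 5 of 6 CHI mice were above all sham mice (log2 fold change 0.72, SE 0.21, adjusted p = 0.785). In C57BL/6J mice Galnt15 was at -0.23 (SE 0.13, adjusted p = 0.640) at 24 h and 0.04 (SE 0.23, adjusted p = 0.9797) at 72 h. The CHI effect on Galnt15 at 24 h was 0.78 above that of C57BL/6J in gKO (SE 0.23, adjusted p = 0.268), and no member's difference from C57BL/6J was called at 24 h (0.00541% of genes in gKO, 0.0108% in eRestore) or 72 h (0.00543% in nRestore, 0% in the others).

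The CHI effect itself was compared between time points in the 3 IL-1R1 strains. For Smim3 it was larger at 9 h than at 24 h by 0.63 (SE 0.17, adjusted p = 0.0124) and than at 72 h by 0.77 (SE 0.16, adjusted p = 0.00076). For Cmtm3 it was larger by 0.49 (SE 0.14, adjusted p = 0.0212) and 0.52 (SE 0.13, adjusted p = 0.00733). For Galnt15 the differences were 0.46 (SE 0.19, adjusted p = 0.201) and 0.45 (SE 0.19, adjusted p = 0.170). Backgrounds were 3.82% and 5.09% of 19674 genes, and between 24 and 72 h, where 0.00508% of genes were called, the members differed by -0.01 to 0.14. The differences from 24 h were not called without the mice high in choroid plexus markers (0.58, adjusted p = 0.106 for Smim3 and 0.42, adjusted p = 0.213 for Cmtm3). The experiments at 9 h and those at later times were separate, so time and experiment cannot be told apart.

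Sham mice also differed between time points. Galnt15 was higher in sham mice of the 3 IL-1R1 strains at 9 h than at 24 h by 0.61 (SE 0.16, adjusted p = 0.00234) and than at 72 h by 0.76 (SE 0.16, adjusted p = 0.000297) on the log2 scale. Smim3 was higher by 0.51 (SE 0.12, adjusted p = 0.00113) and 0.53 (SE 0.12, adjusted p = 0.000802). Cmtm3 was higher than at 72 h by 0.25 (SE 0.10, adjusted p = 0.0384), and its difference from 24 h was 0.20 (adjusted p = 0.108). The Cmtm3 call for 72 h was lost without the mice high in choroid plexus markers and with C57BL/6J sham mice added (0.18). Called in the same way were 34.9% of 18720 genes for 24 h and 31.1% for 72 h, so the members shared this with many genes. In C57BL/6J sham mice the medians at 9, 24 and 72 h were 5.48, 4.81 and 4.84 CPM for Galnt15, 6.62, 7.26 and 5.60 CPM for Smim3 and 5.20, 5.19 and 5.31 CPM for Cmtm3; the difference between strains was not tested here. Surgery was done in the morning, as stated for C57BL/6J, so brains taken at 9 h also came from another part of the day, and these cannot be told apart from experiment.

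Per length of transcript, Cmtm3 and Smim3 were the more abundant members and Galnt15 the least. In C57BL/6J CHI mice at 9 h the mean level was 19.2 TPM for Cmtm3 (SD 4.11, n = 15), 17.2 TPM for Smim3 (SD 3.06) and 5.23 TPM for Galnt15 (SD 1.28). For each gene the 4 CHI groups at 9 h took the 4 highest places among the 24 groups. C57BL/6J was first, a place favoured by the choice of the genes in that strain and not read as a result. For Galnt15 gKO (3.20 TPM, SD 1.02, n = 13), eRestore (3.15 TPM, SD 0.92, n = 12) and nRestore (2.71 TPM, SD 1.84, n = 6) followed and did not differ from each other beyond their spread. The 4 sham groups at 9 h came next, at 1.67 to 1.71 TPM, and the lowest group was nRestore sham at 72 h (0.88 TPM, SD 0.30, n = 5). For Smim3 the order after C57BL/6J was nRestore (12.6 TPM, SD 3.61), eRestore (12.4 TPM, SD 2.44) and gKO (11.9 TPM, SD 4.05), again within their spread. The IL-1R1 sham groups at 9 h followed at 7.56 to 8.07 TPM, while the C57BL/6J sham group at 9 h was 14th (6.30 TPM, SD 1.23, n = 6) and eRestore CHI at 72 h the lowest (5.10 TPM, SD 0.65, n = 12). For Cmtm3 the order was eRestore (17.0 TPM, SD 4.53), gKO (16.3 TPM, SD 3.44) and nRestore (14.4 TPM, SD 3.38). The remaining 20 groups lay between 9.16 and 12.5 TPM, a range in which neighbours did not differ beyond their spread.

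Whether the members vary together from mouse to mouse was tested within groups of at least 6 mice, so that the mean difference between CHI and sham mice did not enter. Of 54 correlations of log2 CPM, 48 were positive, 11 had a raw permutation p under 0.05 and 2 passed adjustment over the 54. The pairs of a group come from the same mice, so the 54 are not independent. The share of positive values among other gene pairs was not computed, so the 48 are a description only. With TPM values 12 of the 39 at 24 and 72 h and 4 at 9 h turned sign. In gKO CHI mice at 9 h Smim3 and Cmtm3 gave Pearson's r = 0.82 (n = 13, permutation p = 0.00061, adjusted p = 0.0165) and Spearman's rho = 0.84 (permutation p = 0.00073, adjusted p = 0.0394). Without the 2 mice farthest from the median r was 0.81, and with TPM values it was 0.54 (adjusted p = 0.540). In C57BL/6J CHI mice at 72 h the same pair gave r = 0.80 (n = 14, permutation p = 0.00059, adjusted p = 0.0165) and rho = 0.71 (permutation p = 0.00643, adjusted p = 0.116). There r was 0.52 without the 2 farthest mice and 0.19 with TPM values (adjusted p = 0.832). Smim3 and Cmtm3 were also the pair with the highest r in eRestore CHI mice at 9 h (r = 0.66, n = 12, permutation p = 0.0194, adjusted p = 0.116). Galnt15 in the same mice gave r = 0.48 with Smim3 and 0.14 with Cmtm3. In the 6 nRestore CHI mice at 9 h r was 0.92 for Galnt15 and Smim3, 0.89 for Galnt15 and Cmtm3 and 0.89 for Smim3 and Cmtm3 (exact permutation, adjusted p = 0.116, 0.105 and 0.105). Without the 2 mice farthest in Galnt15, the same 2 that were high in it, the first fell to 0.19 and the second to 0.49. The third was 0.74 without the 2 mice farthest in Smim3. None of the 54 passed with TPM values, and 27 could be computed after sex and experiment were taken out. Of these, Smim3 and Cmtm3 in gKO CHI mice at 9 h passed (r = 0.80, adjusted p = 0.0178), and the same pair in C57BL/6J CHI mice at 72 h did not (r = 0.73, adjusted p = 0.0808). In C57BL/6J CHI mice at 9 h, given as a description, r was 0.47 for Galnt15 and Smim3, -0.31 for Galnt15 and Cmtm3 and 0.01 for Smim3 and Cmtm3.

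**Figure D3:**
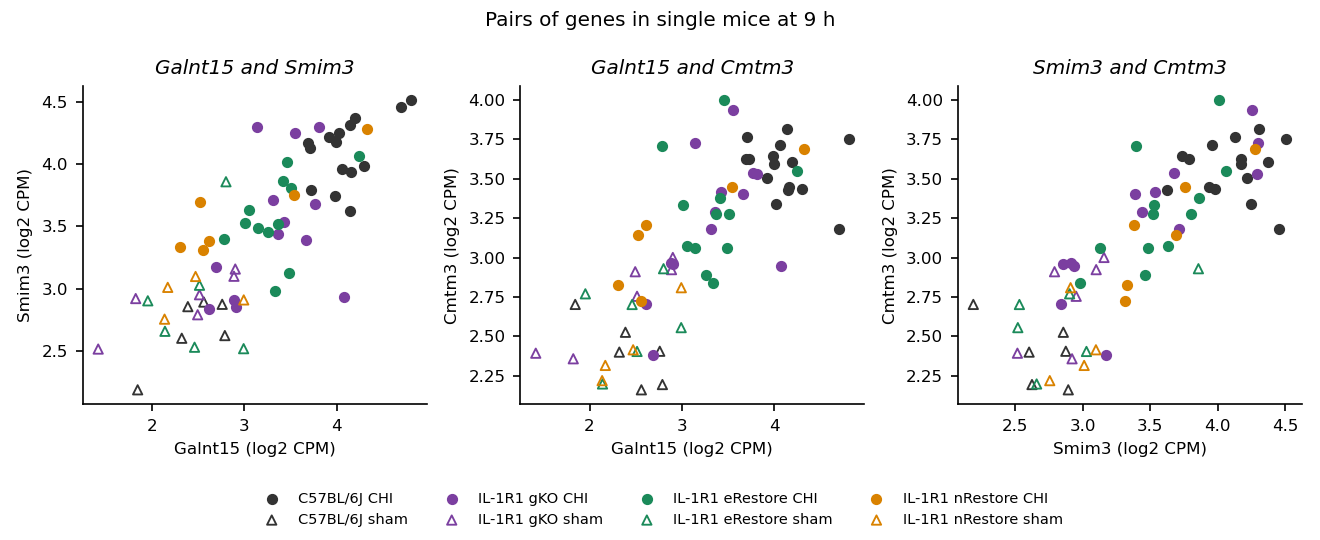
Levels of each pair of members (log2 CPM) in single mice at 9 h, with a panel for each pair; filled circles are CHI mice, open triangles sham mice, and colours mark the strains. In C57BL/6J all 15 CHI mice lie above and to the right of the sham mice, whereas the groups of the other strains overlap in most panels, and within the CHI mice of a strain the pairs range from r = 0.92 (Galnt15 and Smim3, nRestore) to r = -0.31 (Galnt15 and Cmtm3, C57BL/6J).

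Over the 24 group means of log2 CPM, the members gave r = 0.92 for Galnt15 and Smim3, 0.90 for Galnt15 and Cmtm3 and 0.91 for Smim3 and Cmtm3. These are descriptions over groups that include the contrast that chose the genes. The 5 genes most like Galnt15 were Map3k6 (r = 0.96), a stress-responsive kinase, Ctla2a (0.95), Acer2 (0.95), a ceramidase of the Golgi, Relt (0.94), a receptor of the tumour necrosis factor family, and Fkbp5 (0.93), a cochaperone of steroid receptors. For Smim3 they were Htra1 (0.98), a secreted serine protease, Kirrel2 (0.98), an adhesion protein, Ezr (0.97), which links the membrane to actin, Sdc4 (0.97), a heparan sulphate proteoglycan, and Map3k6 (0.96). For Cmtm3 they were C5ar1 (0.95), the receptor of complement C5a, Fkbp5 (0.94), Srxn1 (0.94), an antioxidant enzyme, Wipf3 (0.94) and Ctla2a (0.93). An r over 0.9 was reached by 58 of 20110 genes for Galnt15, 104 for Smim3 and 35 for Cmtm3, so many genes were as alike as the members were to each other. Smim3 was 15th and Cmtm3 47th for Galnt15, Galnt15 was 47th and Cmtm3 70th for Smim3, and Galnt15 was 30th and Smim3 20th for Cmtm3. Once group means, sex and experiment were taken out, the residuals over 200 mice gave r = 0.30, 0.28 and 0.50 for the 3 pairs. For the genes named here they gave from 0.00 (Wipf3 with Cmtm3) to 0.69 (Sdc4 with Smim3). In the 3 IL-1R1 strains at 9 h their log2 fold changes ran from 0.36 for Relt to 1.40 for C5ar1 and Ctla2a, a description only, since these groups were among the 24 that chose them.

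**Figure D4:**
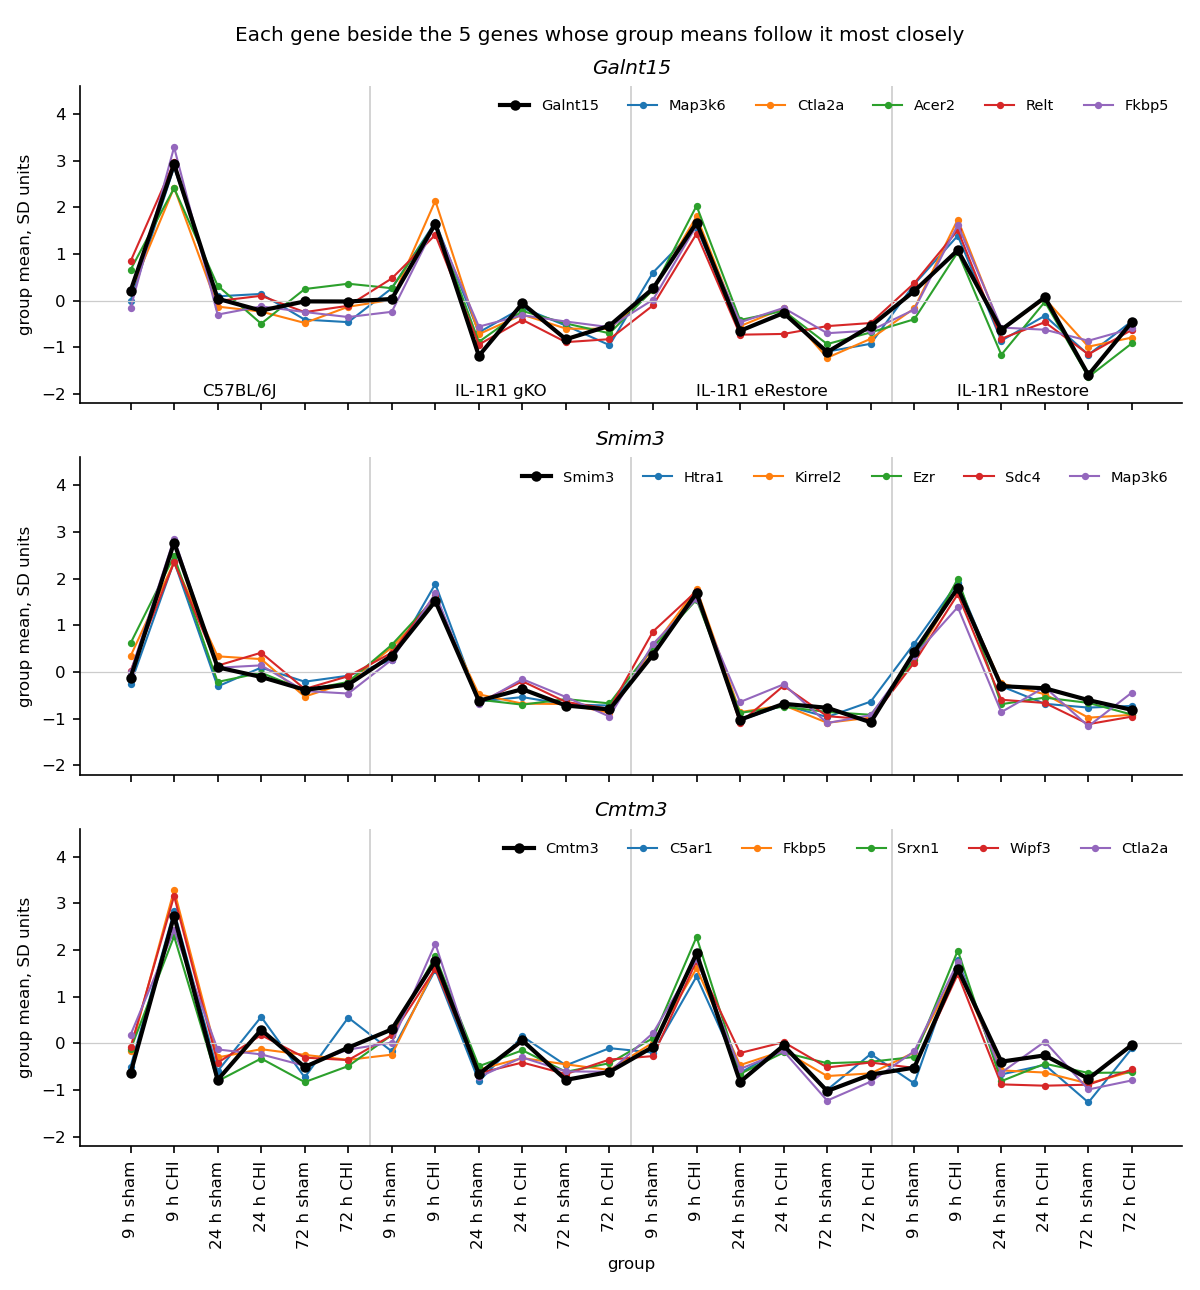
Group means of log2 CPM over the 24 groups, in units of their standard deviation, for each member (black) and the 5 genes most like it (colours). All lines peak in the C57BL/6J CHI group at 9 h and are next highest in the other CHI groups at 9 h; r with the member is 0.93 to 0.98.

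Relatives of the members are read against the 12.3% of all genes called in this comparison. Of the other 16 polypeptide GalNAc transferases tested in the 3 IL-1R1 strains at 9 h, Galnt16 (0.28, adjusted p = 8.22e-05) and Galnt17 (0.20, adjusted p = 0.00696) rose and Galnt13 fell (-0.18, adjusted p = 0.00528), and the list's median was 0.01 beside -0.002 over all genes. Of 11 tested enzymes that extend or cap O-glycans, the sialyltransferase St6galnac3 rose (0.28, adjusted p = 0.00493) and C1galt1c1, the chaperone of core 1 synthase, fell (-0.26, adjusted p = 0.00656). Of 6 other chemokine-like factor genes tested, none rose and Cmtm5 fell (-0.30, adjusted p = 0.011), with a median of -0.21. Of 9 other MARVEL domain genes, Pllp, a myelin protein, fell (-0.28, adjusted p = 0.031). Of 8 neurotrophins and receptors, Ntrk3 rose (0.19, adjusted p = 0.0186) and Bdnf fell (-0.26, adjusted p = 0.0255). Of 26 other genes whose symbols begin with Smim, 2 rose and none fell (median 0.04). Within 100 kb of the members 14 genes were tested, and Tk2, a thymidine kinase of mitochondria near Cmtm3, was called (0.17, adjusted p = 0.00072); Cmtm4, which overlaps Cmtm3, was at 0.05 (adjusted p = 0.518).

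Against the same 12.3% of all genes, calls were also counted among glucocorticoid-responsive and reactive astrocyte genes. Of 13 glucocorticoid-responsive genes, 5 rose in the 3 IL-1R1 strains and none fell (median 0.09), among them the lipid droplet gene Plin4 (1.61, adjusted p = 3.47e-06), Fkbp5 (1.11, adjusted p = 9.55e-06) and Cdkn1a (0.83, adjusted p = 0.00549), while Tsc22d3 was at 0.09 (adjusted p = 0.602) and Sgk1 at 0.05 (adjusted p = 0.908). Of 8 reactive astrocyte genes, 7 rose (median 0.82), among them Lcn2 (2.94, adjusted p = 0.000414), Osmr (0.92, adjusted p = 2.96e-07), Serpina3n (0.89, adjusted p = 9.91e-05) and Gfap (0.64, adjusted p = 5.52e-05). Their summed level ran from 96.4 to 182.97 TPM in gKO sham mice and from 143.5 to 499.6 TPM in gKO CHI mice, from 125.4 to 184.3 and from 166.6 to 299 TPM in eRestore mice, and from 160 to 216 and from 214 to 360 TPM in nRestore mice. The part of these lists in the members' difference was not tested.

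Markers of other cells, read against the same 12.3%, were called in both directions. Of 7 endothelial markers, Cldn5 (0.46, adjusted p = 0.000231) and Ly6c1 (0.40, adjusted p = 0.0117) rose and Tek fell (-0.25, adjusted p = 0.0232). Of 5 fibroblast and leptomeningeal markers, 3 fell, namely Slc6a13 (-0.89, adjusted p = 0.00092), Col1a2 (-0.67, adjusted p = 0.00141) and Lum (-0.76, adjusted p = 0.0073), and of 5 microglial markers P2ry12 fell (-0.44, adjusted p = 9.78e-05). Mural markers gave 1 higher and 2 lower calls of 6, and astrocyte markers 2 higher calls of 6. None of the oligodendrocyte, neuron, choroid plexus, ependymal or red blood cell markers was called. The medians were 1.61 for the 4 red blood cell markers (adjusted p = 0.0641 to 0.126) and -1.12 for the 5 choroid plexus markers. Red blood cell markers summed to medians of 155.4 TPM in CHI and 16.4 TPM in sham gKO mice, 18.5 and 10.4 TPM in eRestore mice and 225 and 196.2 TPM in nRestore mice, within wide ranges (0.76 to 848 TPM in gKO CHI mice), and their part in the members' difference was not tested. Choroid plexus markers summed to 12.1 to 2420 TPM in gKO CHI mice and 19.9 to 3334 TPM in gKO sham mice, and to 6.09 to 374 and 9.54 to 6226 TPM in eRestore mice and 12.0 to 2492 and 16.0 to 909 TPM in nRestore mice, with no marker at 0 throughout. Without the mice over 100 TPM the members' values over the 3 strains were 0.89 (adjusted p = 0.00243), 0.61 (adjusted p = 0.0114) and 0.62 (adjusted p = 0.00243). Neutrophil markers were too low to be tested. They summed to 70.2 TPM in 1 gKO CHI mouse, without which the members' values were 0.83, 0.66 and 0.65.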

How the data were processed

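Poly(A) RNA from a brain hemisphere of each mouse was sequenced (as stated for C57BL/6J). The authors aligned reads to GRCm39 with STAR, quantified them with Salmon in the nf-core workflow and deposited estimated counts per gene. They also deposited TPM, which divides by transcript length and sums alike in each sample. The annotation release and strandedness are not given in the sources used here.

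The rounded estimated counts were fitted in edgeR 4.0.16 (R 4.3.3; TMM, robust quasi-likelihood F test), with genes kept at 10 counts or more in at least the number of mice of the smallest group. Models held sex and age, and strain where strains were joined; sham mice between times were fitted with strain and sex. P-values were adjusted by Benjamini-Hochberg over all tested genes (threshold 0.05). CPM and log2 CPM (prior count 2) were computed over all 200 mice. Correlations used 100000 permutations, or exact enumeration below 10 mice. The methods differed from those stated for C57BL/6J, which used DESeq2 with length offsets; DESeq2 1.42.0 was run with and without them, next to other scaling, filters, covariates, TPM, single experiments, strains left out and replicates left out. Mice with unmatched sex labels or high choroid plexus or neutrophil markers were left out in alternatives chosen after seeing the data. Every mouse has its own animal label and counts once. The count tests were also run on simulated data, with results not given here. The members and gene lists were chosen with earlier results of these data known; other genes are named by a rule (up to 4 of a list by smallest p over the IL-1R1 strains at 9 h, genes within 100 kb and the 5 most alike), with Tsc22d3, Sgk1 and the Smim genes added after their values were seen.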

Additional observations from a re-analysis of the deposited data

Results flagged for a closer look

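The CHI effect differed between time points in the 3 IL-1R1 strains by a test of the difference itself. For Smim3 it was larger at 9 h than at 24 h by 0.63 and than at 72 h by 0.77 (adjusted p = 0.0124 and 0.00076), and for Cmtm3 by 0.49 and 0.52 (adjusted p = 0.0212 and 0.00733). The differences from 24 h were not called without the mice high in choroid plexus markers (Smim3 0.58, adjusted p = 0.106, and Cmtm3 0.42, adjusted p = 0.213). Time and experiment cannot be told apart in any of these contrasts.

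In 5 of 48 tests, 1 for each member in each group of 4 to 10 mice, the highest or lowest mouse stood farther from its neighbour than Dixon's 95% limit allows, and chance flags about 1 in 20 such tests. Galnt15 was low in nRestore CHI replicate 8 at 24 h (3.69 CPM, group median 5.12). Cmtm3 was low in C57BL/6J sham replicate 3 at 24 h (3.96 CPM, median 5.19), in nRestore CHI replicate 7 at 24 h (3.72 CPM, median 5.75) and in nRestore CHI replicate 1 at 72 h (4.44 CPM, median 6.27), and high in gKO sham replicate 3 at 72 h (7.48 CPM, median 4.89). None of these 5 mice was in a group at 9 h.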

How the results depend on the processing

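Over the 3 IL-1R1 strains at 9 h the members stayed called with another scaling, filter, model or tool and with any strain or any nRestore sham mouse left out, and fell short in single experiments (Galnt15 0.67 and 0.86, Smim3 0.50, Cmtm3 0.51 and 0.65), where fewer mice were fitted. Depth limits single mice, since a member had as few as 26 estimated counts. No paired analysis was possible because the labels give the groups no shared replicate numbers; experiment, which CHI and sham mice of most groups shared, was fitted in place of age. In single strains at 9 h, calls were gained for Galnt15 in gKO with DESeq2 (0.97), length offsets (0.95) and experiment in place of age (0.96), for Smim3 in eRestore with DESeq2 (0.60), length offsets (0.60) and an experiment alone (0.86), for Smim3 in nRestore with DESeq2 (0.86), length offsets (0.86) and no filter (0.87, adjusted p = 5.37e-06), and for Galnt15 in nRestore with no filter (1.11, adjusted p = 1.69e-07). The no-filter values in nRestore hardly differed from those with the filter (Smim3 0.87, adjusted p = 0.0846, and Galnt15 1.10, adjusted p = 0.300). Dropping the filter thus moved the p-values and not the sizes, and nothing is read from the no-filter calls. At 24 h a call was gained for Cmtm3 in C57BL/6J with DESeq2 (0.38) and experiment in place of age (0.39). Calls were lost for Galnt15 in eRestore in an experiment alone (0.57), for Cmtm3 in eRestore in each experiment alone (0.53 and 0.92) and without mice high in choroid plexus markers (0.69), and for Cmtm3 in nRestore without covariates (0.75) and without those mice (1.01). They were also lost without those mice for the differences between 9 and 24 h of Smim3 (0.58) and Cmtm3 (0.42), and for Cmtm3 in sham mice between 9 and 72 h (0.23), the last also with C57BL/6J mice added (0.18). Cmtm3 in C57BL/6J at 9 h moved to 1.43 in an experiment alone. Of the correlations, 1 passed with residuals and 0 with TPM (raw p under 0.05 in 11 with CPM); Smim3 and Cmtm3 in gKO CHI mice gave 0.54 with TPM. The cause was not tested.

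Directions turned only in uncalled values. With 1 experiment alone these were Galnt15 and Smim3 in C57BL/6J at 24 h (0.056 and 0.070), Smim3 in gKO (0.16 and 0.078 at 24 h, 0.23 at 72 h), in nRestore at 72 h (0.0099) and over the 3 strains (0.059 at 24 h, 0.044 at 72 h), and Cmtm3 over the 3 strains at 24 h (-0.0034). Without covariates they were Smim3 at 24 h in gKO (0.096), eRestore (0.19) and over the 3 strains (0.081) and Cmtm3 in nRestore (0.072). With experiment in place of age they were Smim3 at 24 h in gKO (0.13), over the 3 strains (0.0094) and in nRestore against C57BL/6J (0.0097). With length offsets they were Cmtm3 at 24 h in eRestore (-0.11), nRestore (0.10) and over the 3 strains (-0.0047) and at 72 h in gKO (-0.074) and eRestore (-0.017). Without mice high in choroid plexus markers they were Smim3 in nRestore at 24 h (0.19), Galnt15 in C57BL/6J (-0.014) and Cmtm3 in gKO (-0.15) at 72 h. For Galnt15 between 24 and 72 h they were 0.014 without age and 0.073 without the mice of unmatched sex label. With TPM, 12 of the 39 correlations at 24 and 72 h turned, and 4 at 9 h, in eRestore CHI mice (Galnt15 and Cmtm3, -0.092), eRestore sham mice (Galnt15 and Cmtm3, -0.68, and Galnt15 and Smim3, -0.025) and gKO sham mice (Smim3 and Cmtm3, -0.075); none of them was called with CPM.

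Single mice were left out in turn only from groups of up to 6 mice (up to 5 over the 3 strains). Values at 9 h then ran from 0.50 to 0.87 for Smim3 and 0.61 to 0.77 for Cmtm3 in eRestore, and from 0.64 to 0.99 and 0.90 to 1.15 in nRestore (Galnt15 0.69 to 1.35), where the call of Smim3 was gained without sham replicate 2 (0.87, adjusted p = 0.0188). At 24 h Smim3 ran from -0.13 to 0.14 in gKO, -0.14 to 0.028 in eRestore, -0.25 to 0.21 in nRestore and -0.076 to 0.0014 over the 3 strains, and Cmtm3 from -0.032 to 0.046 in nRestore. At 72 h Galnt15 ran from -0.032 to 0.14 and Smim3 from -0.099 to 0.15 in C57BL/6J, Galnt15 from -0.018 to 0.27, Smim3 from -0.28 to 0.074 and Cmtm3 from -0.12 to 0.14 in gKO, Cmtm3 from -0.054 to 0.11 in eRestore and Smim3 from -0.23 to 0.044 in nRestore.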

Other observations

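The ratio of estimated count to TPM reflects the mean length of the transcripts assigned to a gene, and it was compared between CHI and sham mice after the values were seen. For Cmtm3 in the 3 IL-1R1 strains at 9 h the ratio was 1.11 times that in sham mice (permutation p = 0.0496, adjusted p = 0.744 over 15 tests, 31 CHI and 16 sham mice). For Galnt15 and Smim3 it was 1.00 times in the same mice, and with length offsets in DESeq2 the log2 fold change of Cmtm3 there was 0.53. None of the 15 tests passed adjustment.

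In gKO mice at 9 h the lowest Cmtm3 value after CHI, 5.12 CPM, was close to the lowest after sham surgery, 5.04 CPM, whereas the lowest Galnt15 value after CHI, 6.03 CPM, was above the sham median of 5.59 CPM.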
